A study of Capra hircus with 3 samples.

Results

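The small RNA tags described here were those read at least 20 times in exactly 1 of 3 goat skin libraries and never in the other 2. A tag is a distinct small RNA sequence and its count is the number of clean reads that carried it. There were 794 such single-library tags among 4043974 distinct tags. The anagen library held 287 of them, the catagen library 353 and the telogen library 154. They made up 0.823% of the 34853 anagen tags with at least 20 reads, 0.920% of the 38378 catagen tags and 0.297% of the 51920 telogen tags. The deepest library, telogen, had the fewest, and when all libraries were thinned to equal depth the numbers were 331, 351 and 51. Because the counts in the 3 libraries chose these tags, their presence in 1 library and absence from the rest is a description and was not tested.

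The libraries were made from the skin of adult Shanbei White cashmere goats during hair growth (anagen), regression (catagen) and rest (telogen) of the follicle. For each stage the skin of 10 goats was mixed, and its RNA was sequenced as 1 library. Stage, pool and library therefore cannot be told apart, and no value below carries a biological replicate error. Intervals are exact Clopper-Pearson 95% intervals, which cover counting error only, since reads amplified by PCR without molecular identifiers are not independent molecules.

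A small RNA library of skin holds mature miRNAs together with fragments of longer RNAs such as transfer and ribosomal RNA. A miRNA binds its target mRNAs mainly through its seed, bases 2 to 8 counted from the 5′ end, so a tag that differs there from a known miRNA would carry another seed. Tags of 1 miRNA also differ in where they end, and a sequencer can read single bases wrongly, so the tags of a library form families around a frequent tag.

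Many of the single-library tags differed by 1 base from a far more frequent tag of the same library, and the place of that base differed between the libraries. The following sequences show it for miRNAs named in the study's list of tags matched to cattle miRNAs. They are given 5′ to 3′, with T for U as deposited, in lower case with the differing base in capitals. Substitutions are written with the base of the frequent tag first, then the position counted from 1 at the 5′ end, then the base of the single-library tag. The first line is the frequent tag of miR-185, with the base at position 8 in capitals, and both other lines of that miRNA differ from it by 1 base.
miR-185, frequent tag: tggagagAaaggcagttcctga
miR-185 A8C, anagen only: tggagagCaaggcagttcctga
miR-185 G5A, telogen only: tggaAagaaaggcagttcctga
miR-21 A16C, anagen only: tagcttatcagactgCtgtt
miR-21 T5G, telogen only: tagcGtatcagactgatgttg
miR-101 A8C, anagen only: gtacagtCctgtgataact
miR-101 A16C, anagen only: gtacagtactgtgatCact
miR-152 A8C, anagen only: tcagtgcCtgacagaacttggt
miR-152 A15C, anagen only: tcagtgcatgacagCacttggt
miR-451 A15C, anagen only: aaaccgttaccattCctgagtt
let-7a or let-7c G5A, telogen only: tgagAtagtaggttgtatggtta
miR-125b T5G, telogen only: tcccGgagaccctaacttgtga
miR-140 C5A, telogen only: accaAagggtagaaccacgga
miR-205 T5G, telogen only: tcctGcattccaccggagtctg
miR-1 A5G, telogen only: tggaGtgtaaagaagtatgta

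In catagen, 48 single-library tags differed by 1 substitution from a tag with at least 10 times the reads. None of these more frequent tags was named in the list, which was held in shortened form. The remaining catagen tags were not compared with the list in this way. The next sequences, taken from those whose more frequent tag had at least 300 reads in every library, stand for that library. The files used here give these tags no name, and whether they are goat RNA was not tested. The first pair differs at different positions from the same frequent tag.
unnamed tag A28C, catagen only: gtgttaggacccgaaagatggtgaactCtg
unnamed tag A25C, catagen only: gtgttaggacccgaaagatggtgaCctatg
unnamed tag A28C, catagen only: gaacaatgtaggtaagggaagtcggcaC
unnamed tag A25C, catagen only: tgcagatcttggtggtagtagcaaCta

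The depth set what could be seen. The anagen, catagen and telogen libraries held 15997828, 18111912 and 27016012 clean reads of 18 to 44 nt. A count of 20 reads corresponded to 1.25, 1.1 and 0.74 RPM, meaning reads in each 1000000 clean reads of the library, and a count of 0 allowed a level of up to 0.188, 0.166 and 0.111 RPM (3 reads). The authors' records gave low-quality reads as 0.62%, 0.317% and 0.55% of the raw reads, and reads lacking a 3′ adapter as 0.343%, 0.029% and 0.163% of the high-quality reads. Counting the listed tags used here, the skin epithelial miRNA miR-200b was read at 29.6 RPM for anagen, 37.4 RPM for catagen and 35.6 RPM for telogen. The shortened list held too few tags of miR-205 and none of miR-203 for a level of these epithelial miRNAs over their listed tags. The muscle miRNA miR-1 was read at 3635, 70340 and 18377 RPM. The red blood cell miRNAs miR-451 and miR-144 were read at 853, 1249 and 425 RPM and at 83.4, 28.7 and 5.89 RPM, lowest in telogen. Another red blood cell miRNA, miR-486, was instead lowest in anagen, at 234, 590 and 279 RPM. The part of these differences in the results below was not tested.

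Most single-library tags were close to the threshold. Their median count was 28 anagen, 32 catagen and 25 telogen reads. The tags at exactly 20 reads numbered 29, 15 and 20, and just outside the threshold 18, 30 and 17 tags had 19 reads in 1 library and none elsewhere. A count of at least 100 was reached by 12 anagen, 38 catagen and 9 telogen tags. All single-library tags together took 14393 anagen reads (0.09% of the clean reads), 20867 catagen reads (0.115%) and 5767 telogen reads (0.0213%).

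The condition of 0 reads elsewhere also had a near border. A further 213 anagen, 297 catagen and 202 telogen tags had at least 20 reads in their own library and 1 or 2 reads in the others together. The most read of these in catagen had 14250 reads, against 0 in anagen and 2 in telogen. Its telogen counterpart had 6555 reads, against 0 in anagen and 2 in catagen, and its anagen counterpart had 344 reads, against 2 in catagen and 0 in telogen. The strongest contrasts of this kind in catagen and telogen therefore lay just outside the rule, which leaves out a tag for a single read.

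The anagen library held the single-library tag with the most reads of all, a 22-nt tag with 2234 reads (140 RPM). Against the limit of 3 reads it was at least 843-fold higher than in catagen and at least 1258-fold higher than in telogen. It was followed by anagen tags with 837, 376, 295 and 262 reads. The tag of 295 reads differed by the substitution G19A from a tag with 12446 anagen reads, and the tags of 837 and 262 reads had their first 18 bases in common with reads of all libraries. Some leading tags, those of 837 and 262 anagen reads and of 337 catagen reads among them, may resemble known miRNAs of land plants. This was judged from general knowledge only. No plant or goat sequence was compared here, so whether their counts are counts of goat RNA was not tested. Some catagen tags may likewise resemble plant transfer or ribosomal RNA, which was not tested either. If so, it would bear on what the lengths, first bases and shared starts of the catagen tags describe.

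The 5 leading catagen tags had 798, 586, 584, 569 and 533 reads. The first was 20 nt long and, at 44.1 RPM, was at least 235-fold higher than in anagen and at least 397-fold higher than in telogen.

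The 5 leading telogen tags had 341, 147, 134, 132 and 120 reads. The first was a 21-nt tag at 12.6 RPM, at least 67.3-fold higher than in anagen and at least 76.2-fold higher than in catagen. None of these 5 differed by 1 base from a tag with at least 10 times its reads, and their first 18 bases were not read in the other libraries.

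The 3 sets of tags differed in length. The anagen tags ran from 18 to 35 nt with most at 22 nt (67 of 287, 23.3%). The catagen tags ran from 18 to 37 nt with most at 21 nt, and 27 of 353 (7.65%) had 22 nt. The telogen tags ran from 21 to 32 nt, and 23 of 154 (14.9%) had 22 nt. Among all tags with at least 20 reads, 10%, 10.6% and 11.3% had 22 nt. Lengths of 18 to 20 nt were found in 5.92% of the anagen tags (interval 3.49% to 9.31%) and 10.5% of the catagen tags (7.49% to 14.2%) but in 0 of the 154 telogen tags, which allows up to 2.37%. Among all tags with at least 20 reads, 16.5%, 13.6% and 11.2% had these lengths, so that the shares of the anagen and telogen tags were below those of their libraries by more than counting error.

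Long tags were likewise rarest in telogen. Over 30 nt, there were 53 anagen tags (18.5%, interval 14.1% to 23.4%), 89 catagen tags (25.2%, 20.8% to 30.1%) and 3 telogen tags (1.95%, 0.404% to 5.59%). All tags with at least 20 reads held 10.5%, 8.73% and 5.03% of such lengths. Anagen and catagen single-library tags were thus long more often than the tags of their own library as a whole, by more than counting error. With a minimum of 50 reads the anagen share was 6 of 51 tags (11.8%), against 10% of all anagen tags with at least 50 reads. For telogen the interval contained the share of the whole library.

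Mature miRNAs of animals often start with U, read here as T. T was first in 92 anagen tags (32.1%, interval 26.7% to 37.8%), 89 catagen tags (25.2%, 20.8% to 30.1%) and 64 telogen tags (41.6%, 33.7% to 49.8%), against 26.6%, 25.2% and 26% of all tags with at least 20 reads. The order of anagen and telogen depended on the rare tags: T was first in 55.4% of the anagen and 45.2% of the telogen tags weighted by reads, and in 58.8% and 44.8% of the tags with at least 50 reads. G was first in 150 catagen tags (42.5%, 37.3% to 47.8%), against 27.1% of all such catagen tags, and in 25.1% of the anagen and 21.4% of the telogen tags. Several of these tags share a start, so they are not independent, and the intervals are narrower than they would be over separate RNAs. The median GC content was 54.5%, 55.9% and 54.5%, close to the 54.5%, 55% and 55.6% of all tags with at least 20 reads.

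No listed miRNA was found among the 794 tags in the lists held. The number found in the study's list of tags matched to cattle miRNAs was 0 of 287, 0 of 353 and 0 of 154. That list was held in shortened form, with 1999 tags a library, so that a tag missing from it may still be listed in full, and no limit is drawn from these counts. Of all tags with at least 20 reads, 1.86%, 1.73% and 1.62% were in the same shortened list, so that few members could have been in it. The 44 candidate miRNAs and 111 hairpins held here, which may not be all that the study listed, contained 0 of the tags of each library, either as a candidate or within a hairpin. Of all tags with at least 20 reads only 0.0516%, 0.0651% and 0.0462% were, so that this count of 0 says nothing particular about the members.

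Each tag was then set beside the other tags of its own library. In anagen, 163 of 287 tags (56.8%, interval 50.8% to 62.6%) differed by 1 substitution from a tag with at least 10 times its reads, called its frequent tag here. In catagen this held for 48 of 353 tags (13.6%, 10.2% to 17.6%) and in telogen for 71 of 154 (46.1%, 38.1% to 54.3%). Of all tags with at least 20 reads, 9.51%, 8.78% and 10.7% did so. The single-library tags of anagen and telogen were therefore substitution variants several times as often as the tags of these libraries in general. These sets were not matched for read count, and a tag of few reads more easily has a neighbour with 10 times its reads. The part of read count in the difference was not tested. When the frequent tag needed at least 100 times the reads, the shares were 19.2%, 0.283% and 43.5%, so that telogen then exceeded anagen. A single inserted or deleted base was found in 5, 14 and 5 further tags.

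The frequent tags of these variants were not themselves bound to 1 library. They were read in all 3 libraries for 162 of the 163 anagen variants, 39 of the 48 catagen variants and all 71 telogen variants. The median variant had 1.2% of the reads of its frequent tag for anagen, 6.54% for catagen and 0.229% for telogen. The telogen variants thus sat on far more abundant tags than the catagen variants did.

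In anagen the differing base was mainly at a few positions and mainly an A read as C. Position 8 held 55 of the 163 variants, all of them A8C. A23C was found in 39 tags, A15C in 20, A16C in 10 and A22C in 6. The A8C tags had between 20 and 76 reads and the A23C tags between 20 and 146. Position 8 is the last base of the seed, whereas positions 15, 16, 22 and 23 lie outside it.

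The anagen variants near listed miRNAs numbered 17, over 9 annotations. For miR-101 the A8C tag had 76 anagen reads and the A16C tag 69, beside a frequent tag of 12198 anagen, 1181 catagen and 7399 telogen reads. For miR-185 the A8C tag had 59 reads, beside 4572, 5862 and 9966 reads of the frequent tag. For miR-152 the A8C tag had 54 reads and the A15C tag 35, beside 6790, 19528 and 16619 reads.

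Per 1000000 clean reads, the frequent tag was higher in another library for miR-185 (286, 324 and 369 RPM) and miR-152 (424, 1078 and 615 RPM), although the variant was read in anagen alone. The same held for miR-26a, whose leading A8C tag had 32 reads beside a frequent tag of 200, 243 and 327 RPM. For miR-101 the level of the frequent tag was highest in anagen for the printed tags (762, 65.2 and 274 RPM) and highest in catagen for a 22-nt A8C tag of 50 reads (521, 668 and 429 RPM). Anagen had the highest level for miR-221, whose A8C tag had 33 reads beside 154, 144 and 94.5 RPM. For miR-451, a miRNA of red blood cells, the A15C tag had 20 reads, beside 214, 252 and 99.3 RPM. Tags of miR-320a (A16C, 28 and 22 reads), miR-374b (A8C, 21 reads) and miR-21 (A16C, 21 reads) completed the set with frequent tags of at least 1000 reads in each library.

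In catagen the position was again narrow but lay nearer the 3′ end. Of the 48 variants, 28 were A25C and 8 were A28C. The A25C tags had between 20 and 61 reads and the A28C tags between 26 and 79. Such tags are by length longer than a mature miRNA, and none had a frequent tag named in the shortened list.

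The factor of 10 between a tag and its frequent tag mattered most for A28C. When any tag with more reads was accepted, 51 catagen tags were A28C and 28 were A25C, among 121 variants. The A28C tags had a median of 12.8% of the reads of the more frequent tag, from 7.28% to 20.2%, and the A25C tags a median of 5.39%, from 3.02% to 8.08%. The printed A28C tag with 86 reads stood beside 383 anagen, 795 catagen and 600 telogen reads of its more frequent tag, and the A25C tag of the same RNA had 24 reads. With that wider rule the variants were 34.3% of the catagen tags.

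In telogen a single position held nearly all variants. Position 5 was the differing base in 65 of 71 tags (91.5%), in the seed. The change there took several forms, none of which held most of the tags: G5A in 17 tags, C5A in 15, T5G in 12, T5A in 10, C5G in 7, A5G in 3 and A5C in 1. The new base was A or G in all but the last.

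Of the telogen variants, 17 had a frequent tag given the name of a listed miRNA, over 11 annotations. The let-7 family, whose mature members share a seed, gave 6 of them, all G5A. The leading one, given the joint name let-7a or let-7c, had 73 reads beside 24914 anagen, 22360 catagen and 35519 telogen reads of its frequent tag. The naming used here did not separate let-7a from let-7c. A G5A tag of 32 reads had a frequent tag of another sequence under the same joint name. The joint name is thus a limit of the naming, and the printed sequence was not compared with either miRNA alone. The let-7b and let-7i tags had between 20 and 30 reads.

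Among the others, the T5G tag of miR-21 had 55 reads beside 13839, 27121 and 28703 reads of its frequent tag. The T5G tag of miR-125b had 49 reads beside 4035, 14174 and 27320. The T5G tag of miR-205, a miRNA of epithelial cells, had 35 reads beside 5279, 10934 and 18680. The listed tags of miR-205 counted for its level had only 17, 4 and 24 reads, so this frequent tag was not among them. Per 1000000 clean reads, the telogen library had the highest level of the frequent tag for miR-125b (252, 783 and 1011 RPM) and miR-205 (330, 604 and 691 RPM), but not for miR-21 (865, 1497 and 1062 RPM) or the leading let-7 tag (1557, 1235 and 1315 RPM).

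The A5G tag of miR-1 had 25 telogen reads, while its frequent tag had 2936 anagen, 19540 catagen and 14806 telogen reads (184, 1079 and 548 RPM), so that catagen had more of the frequent tag and no read of the variant. For miR-140 a C5A tag of 43 reads and a C5G tag of 29 reads were both found in telogen. The G5A tag of miR-185 had 23 reads, beside the same frequent tag whose A8C variant was found in anagen only.

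Whether these positions were particular to the chosen tags was examined on tags the rule did not use. For 798 frequent tags with at least 1000 reads in each library, reads that differed by 1 base were counted at each position, leaving out the single-library tags and variants above 10% of their frequent tag. At position 8 they were 0.165% of the frequent tag reads for anagen, 0.0814% for catagen and 0.0795% for telogen. At position 5 they were 0.0895%, 0.0891% and 0.379%. At position 25, present in 298 of these tags, they were 0.271%, 1% and 0.339%, and over the 18 of these tags with at least 5000 reads in each library 0.151%, 0.306% and 0.148%, with single-library tags included. At these 3 positions the library whose single-library tags changed there was the high one, but such differences were not limited to positions with many variants. Telogen was also higher at position 6 (0.12%, 0.117% and 0.229%), and anagen at position 18 (0.161%, 0.0793% and 0.0939%), each with 1 single-library tag. Position 28 was not higher in catagen (0.293%, 0.381% and 0.47% over 144 tags), in a count that leaves out variants above 10% of the frequent tag. Anagen was highest at position 15 (0.158%, 0.0701% and 0.103%) and position 16 (0.101%, 0.0665% and 0.0816%), as it also was at position 17 (0.204%, 0.103% and 0.143%). Counted over all changes, anagen exceeded the others by less at position 23 (1%, 0.848% and 0.755%) and did not at position 22 (0.473%, 0.448% and 0.493%). These reads come from the same 3 libraries and are no replicate of them.

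Tag by tag, the A8C variant was highest in anagen in 151 of 153 frequent tags with A at that position, with a median of 0.832% in anagen and 0 in both others. Here and in the counts that follow, single-library tags were again left out, and variants of any size were kept. For comparison, at the neighbouring positions A7C was highest in anagen in 93 of 269 tags and A9C in 72 of 184. A15C was highest in anagen in 182 of 187 tags, A16C in 179 of 193, A22C in 157 of 164 and A23C in 104 of 105. The change at these positions thus ran through nearly all frequent tags with the base and was not limited to the miRNAs printed above.

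A25C was highest in catagen in 56 of 56 frequent tags, with medians of 0.0524% for anagen, 5.15% for catagen and 0.285% for telogen. A28C was highest in catagen in 14 of 14, with medians of 0.227%, 12.2% and 0.503%. In telogen, G5A was highest in 280 of 286 tags, C5A in 120 of 120, T5G in 133 of 154, T5A in 146 of 155 and C5G in 125 of 128. The telogen medians of these 5 lay between 0.146% and 0.244%, and those of anagen and catagen were at most 0.0114%. The part of sequencing, of library preparation and of the stage in these differences cannot be told apart with 1 library per stage.

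Starts were compared next, since tags of 1 RNA often share their 5′ end and differ in length. The anagen tags had 201 distinct 18-base starts, the catagen tags 204 and the telogen tags 130. Starts shared by at least 2 single-library tags numbered 50, 65 and 15 and held 136, 214 and 39 tags. Among the single-library tags, sharing was most common in catagen and least common in telogen. Between libraries, 1 start had single-library tags in both anagen and catagen, 1 in both anagen and telogen and 1 in both catagen and telogen. No share over all tags or starts was set beside any of these counts of shared starts, so nothing particular to the single-library tags is read from them.

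The start with the most tags in catagen held 19 of them, with 2627 reads in all. Its leading tags had 798, 569 and 317 reads at 20, 21 and 21 nt, and its tags ran from 19 to 35 nt. Every tag of this start together had 3010 catagen reads and no read in anagen or telogen. A second catagen start, with 9 tags of 19 to 33 nt and a leading tag of 584 reads, had 1443 catagen reads and likewise none elsewhere.

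The largest anagen start was of the opposite kind. It held 6 single-library tags, led by tags of 120, 65 and 63 reads, but all tags with that start had 128755 anagen, 146022 catagen and 60335 telogen reads. Those 6 tags thus shared their start with abundant tags of every library. In catagen, the tag whose start was most read elsewhere was an A25C tag of 57 reads and 32 nt, in a start with 31002, 24676 and 71964 reads. In telogen it was a tag of 21 reads and 32 nt with 1 inserted or deleted base, in a start with 20215, 40087 and 81422 reads. The largest telogen start held 5 tags of 25 to 31 nt, led by 77, 35 and 27 reads, in a start with 8 anagen, 4 catagen and 239 telogen reads.

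Close variants, meaning any tag with the same first 18 bases, were found in another library for 175 of the 287 anagen tags (61%, interval 55.1% to 66.7%), 224 of the 353 catagen tags (63.5%, 58.2% to 68.5%) and 85 of the 154 telogen tags (55.2%, 47% to 63.2%). No share over all tags is set beside these, because other tags are mostly themselves read in several libraries. When the close variant needed at least 20 reads, the shares were 39%, 32.3% and 12.3%, and among tags with at least 50 reads the telogen share was 27.6%. For starts read elsewhere, the anagen starts had a median of 28 reads in catagen and 30 in telogen. The catagen starts had medians of 177 in anagen and 180 in telogen, and the telogen starts medians of 2 in anagen and 3 in catagen. A substitution within the first 18 bases gives a tag another start, so these shares and medians depend on where the differing base lies. In telogen it lay at position 5 in 65 of 71 variants, while all 71 frequent tags were read in all 3 libraries. Low values here therefore do not show that related tags were missing elsewhere.

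In catagen, 176 of 353 tags shared only their start with other libraries and were neither a substitution nor an insertion or deletion of a frequent tag, against 31 of 287 in anagen and 30 of 154 in telogen. Of these, 54 catagen, 17 anagen and 3 telogen tags differed by 1 substitution from a tag with more reads, though with less than 10 times as many, and 39 of the 54 were A28C. The catagen tags in this group ran up to 37 nt. Among the substitution variants, 139 of 163 in anagen, 39 of 48 in catagen and 50 of 71 in telogen had their start in another library.

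A few single-library tags shared a start across libraries and differed after it. The anagen tags of 262 and 87 reads and the catagen tag of 337 reads, all 22 nt long, had 1 start in common, which had 1282 anagen, 530 catagen and 62 telogen reads. The start was thus present in all 3 libraries while each of these tags was in 1. The anagen tag of 837 reads had a start with 2901, 1210 and 298 reads.

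At the level of the start, absence was more frequent than at the level of the tag. Among 18-base starts with at least 20 reads, 215 of 13691 anagen starts (1.57%), 152 of 14687 catagen starts (1.03%) and 181 of 20636 telogen starts (0.877%) had no read elsewhere. Of the starts of single-library tags, 94, 75 and 59 had none, and these held 112, 129 and 69 tags. Their highest counts were 2285, 3010 and 366 reads. These tags had no close variant in the other libraries that this rule could find. They include the substitution variants whose start was not read elsewhere, so a tag 1 base away can still be present there. The miR-185 A8C tag is an example: its start had 97 anagen reads and 0 elsewhere. Its frequent tag had 5862 catagen and 9966 telogen reads.

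The tags that were left had no start in another library and no frequent tag 1 base away. They numbered 88 of the anagen tags (30.7%), 115 of the catagen tags (32.6%) and 48 of the telogen tags (31.2%), and took 6173, 8546 and 2537 reads. They held 42.9%, 41% and 44% of the reads of the single-library tags, so about equal shares in the 3 libraries. They included the most read tag of each library. No file used here links them to the goat genome or to a named RNA, so their sequences are not shown, and whether they are goat RNA was not tested. The possible resemblance to plant RNA named above, which was not tested, may also concern some of them.

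By length these unlinked tags differed between the libraries. In anagen 74 of the 88 (84.1%) had 21 to 23 nt, and 40 had 22 nt. In catagen 49 of 115 (42.6%) had 21 to 23 nt, and the group ran from 18 to 36 nt. In telogen 24 of 48 (50%) had 21 to 23 nt. Among all tags with at least 20 reads, 28.5%, 30.1% and 32.1% had these lengths. In anagen the unlinked tags were thus mostly of miRNA length, whereas the substitution variants of that library had a median of 26 nt. Counts of at least 100 reads were reached by 5 anagen, 15 catagen and 7 telogen tags of this group.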

How the data were processed

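The deposited files give, for each library, every distinct clean tag with its length and its count of reads, without normalisation. The authors removed reads of low quality, those with 5′ adapter, with no insert or no 3′ adapter, or shorter than 18 nt, then collapsed identical reads. Lists of tags matched to cattle miRNAs and of candidate hairpins came from the study's supplementary material and were used for sequences and names only. Members and lists were chosen with earlier results of these data known.

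From the counts, tags with at least 20 reads in 1 library and 0 in the others were taken in Python 3.11.15 (numpy 2.4.6, pandas 2.3.3, scipy 1.17.1). On simulated data with 300 planted tags the script recovered 300 with 0 false among 3900. Each tag was compared with tags of its library by 1 substitution or 1 inserted or deleted base, the related tag needing at least 10 times the reads, and by its first 18 bases with the other libraries. Named are, per library, the 5 tags with the most reads, the start with the most tags and its 3 leading members, listed tags, and tags whose start had the most reads elsewhere; the printed miRNA variants were chosen after their values were seen. With 1 library per stage no test was made. Printed are variants of tags named in the miRNA list or, for catagen, of unnamed tags with at least 300 reads in every library. Presence in every library is not a link to the goat. The tags are reads before alignment, and no genome was used here.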

Additional observations from a re-analysis of the deposited data

How the results depend on the processing

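No paired analysis was possible because each stage has 1 library and the labels give no replicate numbers. The number of single-library tags in anagen, catagen and telogen was 884, 932 and 742 with a minimum of 10 reads, 51, 86 and 29 with 50 reads, and 12, 38 and 9 with 100 reads. Telogen fell to 45 tags at equal RPM and to 51 when libraries were thinned to equal depth. Allowing 1 read elsewhere gave 444, 548 and 296. Leaving out substitution variants, chosen after seeing the data, gave 124 in anagen and 83 in telogen, and leaving out every tag with a related tag, also chosen then, gave 88, 115 and 48. The share with a close variant moved to 71.1% in catagen with 16 bases, to 57.4% there with 20 bases, to 71.7% in catagen and 68.2% in telogen when the match could lie anywhere in a tag, to 39%, 32.3% and 12.3% when the variant needed 20 reads, and to 55.8% in catagen and 27.6% in telogen with a minimum of 50 reads. In anagen the 22-nt share was 33.6% weighted by reads, 21.4% weighted without the most-read tag and 17.3% with a minimum of 10 reads, and the share starting with T was 55.4% weighted, 47.2% weighted without that tag (an alternative added after seeing the data) and 58.8% with a minimum of 50 reads. At that minimum, tags over 30 nt were 11.8% in anagen and 0% in telogen. Listed tags numbered 1 in telogen by first 18 bases and 1 in catagen with a minimum of 10 reads. The share of substitution variants was 19.2% in anagen and 0.283% in catagen when the frequent tag needed 100 times the reads, and 65.5% in anagen and 34.3% in catagen when any tag with more reads was accepted, an alternative added after seeing the data. With frequent tags of at least 5000 reads, also added then, the value at position 25 was 0.306% for catagen (18 tags), at position 8 0.124% for anagen and at position 5 0.354% for telogen. The cause of these shifts was not tested beyond what each alternative itself changes. Depth limits absence: 0 reads allow up to 0.188 RPM in anagen.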

Other observations

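Single-library tags also grouped when any stretch of 18 bases, and not only the start, was compared. The 287 anagen tags fell into 152 groups, the 353 catagen tags into 123 and the 154 telogen tags into 113, of which 107, 64 and 93 held a single tag. The largest catagen groups held 21, 19 and 18 tags with 2593, 2627 and 1355 reads, and the 5 largest took 8551 of the 20867 catagen reads. The largest anagen group held 23 tags with 1520 reads and the largest telogen group 10 tags with 597 reads. Among the single-library tags, those of catagen thus came from fewer stretches of sequence per tag than those of the other libraries. No grouping of all tags of a library is set beside this, and the number of tags grouped differed between the libraries.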
